A study of Mus musculus with 9 samples.

Results

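The 10 genes described here make up the Th1 program of CD4 T cells: the lineage factors Tbx21, Runx3 and Eomes, the receptor and transducer genes Il12rb1, Il12rb2, Stat4 and Il18r1, the cytokine gene Ifng with its receptor gene Ifngr1, and the chemokine receptor gene Cxcr3. They were chosen by name, as the probe sets whose annotated symbol is one of the 10. All 10 of 10 were measured, by 11 of 22626 probe sets, among 12393 genes in all. Eomes alone had 2 probe sets. No gene was left out by a filter on low values. Expression was measured on 9 Affymetrix 3′ arrays of CD4+CD25+ regulatory T (Treg) cells, isolated by magnetic separation from mice on a C57Bl/6 background.

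The CBP-deleted group (3 arrays) came from fl-CBP/Foxp3cre mice and the p300-deleted group (3 arrays) from fl-p300/Foxp3cre mice. The control group (3 arrays) came from Foxp3cre mice, which the labels also call wild type. By the genotype labels all groups carried a Cre recombinase driven from Foxp3, and in both deleted groups a floxed acetyltransferase gene was exposed to it in cells that express or had expressed Foxp3. Whether the control carried the same Foxp3cre allele was not tested. CBP and p300 are closely related acetyltransferases that act as transcriptional coactivators, and the comparisons ask what the loss of either did to the transcripts of Treg cells. The labels call the 3 samples of a group independent and give no age, sex or pooling of animals.

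In CD4 T cells the Th1 program is set up by interferon-gamma and interleukin-12. Interferon-gamma, bound by a receptor that includes the product of Ifngr1, induces Tbx21, which encodes the lineage factor T-bet. Interleukin-12, bound by the chains encoded by Il12rb1 and Il12rb2, signals through STAT4, and T-bet acts with Runx3 on Ifng and Cxcr3. Some Treg cells express T-bet and CXCR3 and are known for restraining Th1 responses, so transcripts of the program are normal constituents of a Treg preparation.

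The deposited values are log2 expression values. A difference of 1 is a 2-fold difference, and all differences below are on the log2 scale. Array medians lay between 5.49 and 5.59. Differences between groups were tested with limma across all 12393 genes, two-sided, with Benjamini-Hochberg adjustment, and a gene was called at an adjusted p under 0.05. Both comparisons with control used the same 3 control arrays. In such bulk samples, fewer cells of a type and less RNA per cell cannot be told apart. The T cell label was met in all groups, with Cd3e between 11.3 and 11.7 on every array. Foxp3 averaged 2.87 ± 0.12 in CBP-deleted cells, 2.95 ± 0.32 in p300-deleted cells and 9.60 ± 0.14 in control cells (SD, n = 3 each). Its probe set was thus at the background level in both deleted groups. Whether Foxp3 transcript outside this probe set changed was not tested, nor whether the Foxp3 allele of the control matched that of the deleted groups. Without such a match, loss of an acetyltransferase and a difference of the Foxp3 allele cannot be told apart in either comparison with control. This holds for the Tbx21 and Il12rb1 calls below as well. None of the other 6 markers of CD4 T and Treg cells was called lower: Ctla4 was called higher in CBP-deleted cells, by 0.56 (limma adjusted p = 0.0165), Cd4 was called higher in p300-deleted cells, by 0.66 (limma adjusted p = 0.0214), and the rest, among them Il2ra (the gene of CD25) at 0.04 and 0.24, did not pass in either group. Crebbp, the gene of CBP, averaged 7.20 ± 0.13, 7.56 ± 0.10 and 7.53 ± 0.16 in the CBP-deleted, p300-deleted and control groups (SD, n = 3 each), and its CBP-deleted minus control difference was -0.33 with a limma adjusted p of 0.123. A 3′ probe set may lie outside a deleted exon, so Crebbp checks the label only weakly. The gene of p300 was not analysed here.

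In CBP-deleted Treg cells 2 of the 10 Th1 genes fell against control, Tbx21 by 1.14 and Il12rb1 by 0.70 on the log2 scale, and 0 rose. Among all genes 2.79% fell and 2.14% rose in this comparison, 4.93% together. The other 8 did not pass the test, and their differences ran between -0.53 for Ifng and 0.44 for Ifngr1. Over the 10 genes the median difference was -0.24, beside -0.03 over all genes, and 6 of 10 were negative, beside 56.6% of all genes. The groups did not overlap for 4 of the 10 genes: Tbx21 and Il12rb1 were lower and Il18r1 and Ifngr1 higher on every CBP-deleted array. In all, 24.4% of genes did not overlap in one direction or the other. At an unadjusted p under 0.05, 3 of the 10 genes passed limma, beside 20.4% of all genes.

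In p300-deleted Treg cells 0 of the 10 Th1 genes rose and 0 fell against control, where 2.02% of all genes rose and 2.04% fell, 4.06% together. At an unadjusted p under 0.05, limma passed 3 of the 10, namely Tbx21, Runx3 and Eomes, all lower, beside 18.6% of all genes. The median difference of the 10 genes was -0.18, beside -0.02 over all genes, and 9 of 10 were negative, beside 55.1% of all genes. Without p300-deleted replicate 3 only 6 of 10 were negative, and leaving out 1 array moved the median between -0.34 (without control replicate 3) and -0.085 (without control replicate 1). Runx3 alone did not overlap between the groups, beside 20.3% of all genes.

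Set directly against each other, CBP-deleted cells had a higher level of Ifngr1 than p300-deleted cells, by 0.59, and this was the 1 gene of 10 past the test, beside 3.20% of all genes higher and 2.01% lower, 5.20% together. At an unadjusted p under 0.05 limma passed 3 of the 10, Ifngr1, Eomes and Il12rb1, beside 18.3% of all genes. CBP-deleted and p300-deleted arrays did not overlap for 5 of the 10, with Il18r1, Eomes and Ifngr1 higher and Il12rb1 and Stat4 lower in CBP-deleted cells, beside 30.1% of all genes in either direction. The plot of group differences shows all 30 differences with their intervals.

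**Figure D1:**
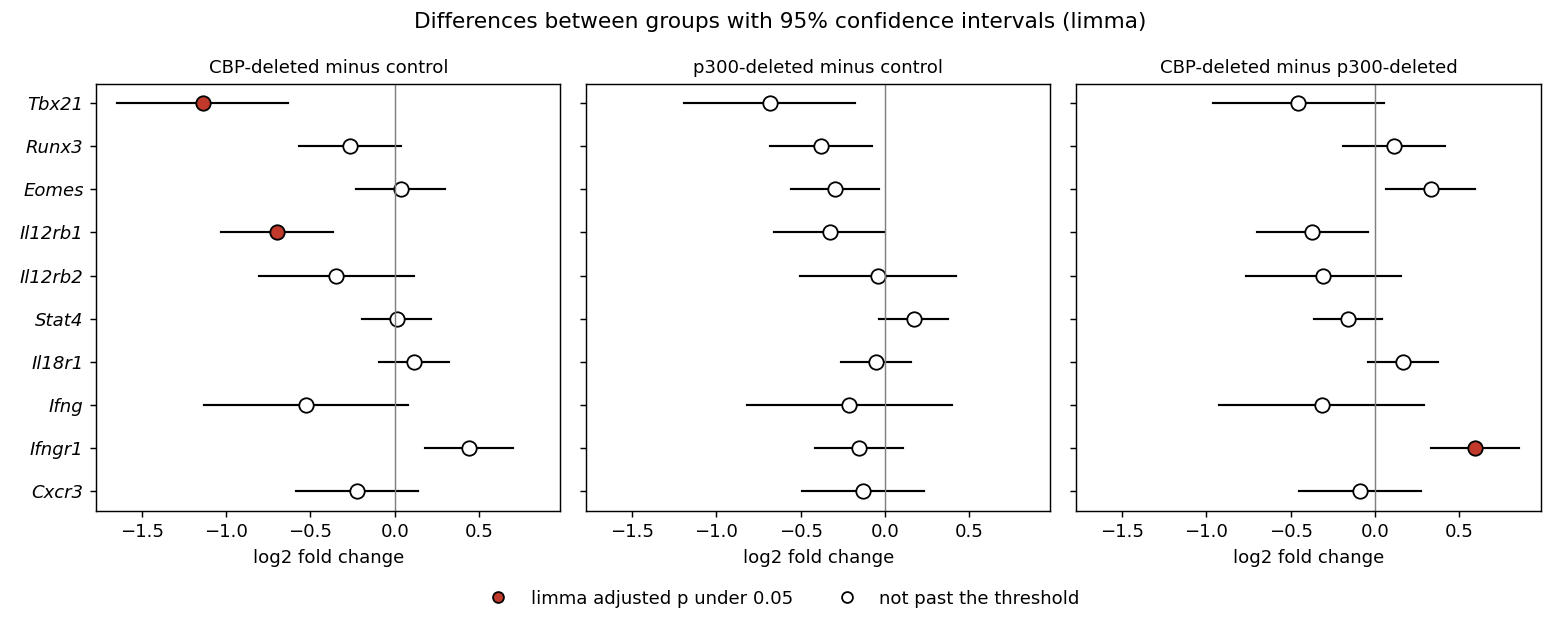
Difference between group means for each of the 10 Th1 genes (x axis, log2 fold change; lines, 95% confidence intervals from limma, 3 arrays a group) in the 3 comparisons, with filled points where the adjusted p is under 0.05. Tbx21 at -1.14 and Il12rb1 at -0.70 are filled in the CBP-deleted minus control panel, none is filled in the p300-deleted minus control panel, and Ifngr1 at 0.59 is filled in the CBP-deleted minus p300-deleted panel.

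Among the lineage factors, Tbx21 fell in CBP-deleted cells. Tbx21 encodes T-bet, the T-box factor that defines the Th1 lineage, and lies at chr11:97098007-97115331 of GRCm38.p6. Its log2 expression was 7.23, 7.49 and 7.17 on the CBP-deleted arrays, 8.37, 7.58 and 7.31 on the p300-deleted arrays, and 8.48, 8.70 and 8.12 on the control arrays. Every CBP-deleted array lay below every control array, while the p300-deleted group spanned both, with replicate 1 inside the control range and replicates 2 and 3 near the CBP-deleted range. The CBP-deleted group averaged 7.30 ± 0.17 and control 8.43 ± 0.29 (SD, n = 3 each), a difference of -1.14 (SE 0.23, 95% confidence interval -1.64 to -0.63, limma adjusted p = 0.0210), which is 2.20-fold lower. The call was kept in 16 of 20 alternative analyses and lost in the 4 that left out any 1 of the 3 CBP-deleted arrays or control replicate 1, where the limma adjusted p lay between 0.0609 and 0.0853. In p300-deleted cells Tbx21 averaged 7.75 ± 0.55, and its difference from control was -0.68 (SE 0.23, limma adjusted p = 0.131). Without p300-deleted replicate 1 that difference was -0.99 with a limma adjusted p of 0.0244, the only 1 of 20 alternatives in which it passed. CBP-deleted minus p300-deleted was -0.46 (95% interval -0.96 to 0.05, limma adjusted p = 0.332), so the order CBP-deleted, p300-deleted, control from low to high is not settled between the deleted groups.

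The Tbx21 promoter, 250 bases before to 50 bases after the start, is printed because this gene had the largest difference of the 10. It lies at chr11:97115282-97115581 on the minus strand of GRCm38.p6 and comes from RefSeq, in which 9 of the 10 genes, all but Il12rb1, matched 13 promoters. Searches ran on both strands and print matches in capitals. TGACG is the core of the cyclic AMP response element bound by CREB, a partner of CBP and p300, and TGACGTCA the full element, which holds that core. TTCNNNGAA stands for STAT factors, GGTGTGA for the family of T-bet, TGTGGT for the Runx factors, and TGANTCA for the AP-1 factors. None of these letters occur in the Tbx21 window.
Tbx21: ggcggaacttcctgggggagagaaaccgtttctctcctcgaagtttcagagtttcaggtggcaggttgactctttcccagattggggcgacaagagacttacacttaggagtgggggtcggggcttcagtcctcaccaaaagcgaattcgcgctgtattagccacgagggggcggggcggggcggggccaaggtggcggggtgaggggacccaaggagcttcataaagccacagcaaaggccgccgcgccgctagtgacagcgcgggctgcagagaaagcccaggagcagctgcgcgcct

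TGACG occurred in 3 of the 13 promoters (of Il12rb2, Stat4 and Ifng), near the share of 20.8% of 32851 promoters in the same table. TTCNNNGAA also occurred in 3 of 13 (of Il12rb2, Ifng and Il18r1), beside 8.30%, and TGTGGT in 3 of 13 (of Cxcr3, Il18r1 and Runx3), beside 16.8%. The other searches matched 0 of 13, beside 1.79% for TGACGTCA, 3.98% for GGTGTGA and 7.81% for TGANTCA. A match is a description of letters, and no match says only that they are not in this window.

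Runx3, whose product acts with T-bet on Ifng, gave 5.39, 5.48 and 5.42 on the CBP-deleted arrays, 5.15, 5.39 and 5.40 on the p300-deleted arrays and 5.92, 5.43 and 5.73 on the control arrays. Its level was at or near the upper end of the background range: probe sets of 16 genes of liver, brain, testis and other foreign tissues reached 5.89 at most, with a median of 3.04. Above 5.19 this range, here and below, was that of the testis gene Prm1 alone. Of the Runx3 values only the 5.15 of p300-deleted replicate 1 lay under 5.19. Runx3 stood below every control array on all p300-deleted arrays, with a difference of -0.38 (95% interval -0.68 to -0.08, limma adjusted p = 0.160). CBP-deleted minus control was -0.27 (95% interval -0.57 to 0.04, limma adjusted p = 0.311).

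Eomes encodes eomesodermin, the T-box factor related to T-bet that is known from CD8 T and NK cells. Its brighter probe set gave 7.76, 7.84 and 7.93 in CBP-deleted cells, 7.43, 7.50 and 7.61 in p300-deleted cells, and 7.95, 7.94 and 7.54 in control cells. All CBP-deleted arrays lay above all p300-deleted arrays, and control replicate 3 lay with the p300-deleted arrays. The p300-deleted minus control difference was -0.30 (SE 0.12, limma adjusted p = 0.206), and CBP-deleted minus p300-deleted was 0.33 (SE 0.12, limma adjusted p = 0.156). Without control replicate 3, p300-deleted minus control was -0.43 with a limma adjusted p of 0.0257, and CBP-deleted minus p300-deleted had an adjusted p of 0.0413. CBP-deleted minus control was 0.03 (95% interval -0.23 to 0.30), with an adjusted p of 0.909 from limma. The other Eomes probe set had the same order of groups and averaged 6.90 ± 0.08 in CBP-deleted, 6.61 ± 0.19 in p300-deleted and 6.88 ± 0.28 in control cells (SD, n = 3 each). There the CBP-deleted arrays, at 6.81 to 6.97, overlapped the p300-deleted arrays, at 6.50 to 6.84. With every probe set tested, its limma adjusted p was 0.402 for CBP-deleted minus p300-deleted and 0.417 for p300-deleted minus control.

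**Figure D2:**
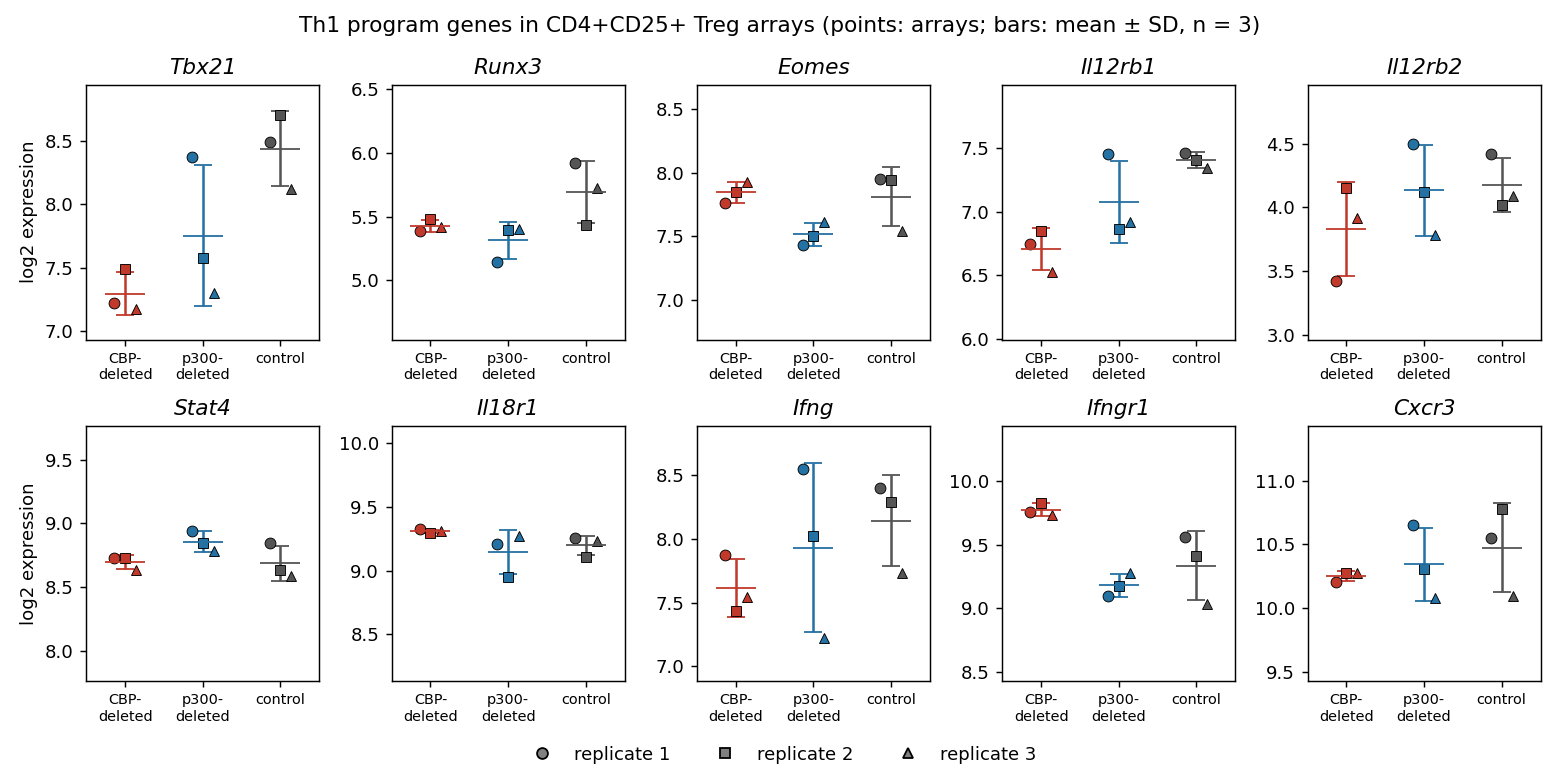
Log2 expression (y axis, its own range in each panel) of the 10 Th1 genes on each array, by group (x axis), with the replicate number of the labels as the point shape and bars for mean ± SD (n = 3). Tbx21 and Il12rb1 lie lowest in CBP-deleted cells, and p300-deleted replicate 1, at 8.37 for Tbx21 and 7.45 for Il12rb1, lies in the control range.

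Of the receptor genes, Il12rb1 fell in CBP-deleted cells. It encodes the chain shared by the receptors of interleukin-12 and interleukin-23 and lies at chr8:70808360-70823542 of GRCm38.p6. Its values were 6.75, 6.85 and 6.53 on the CBP-deleted arrays, 7.45, 6.87 and 6.92 on the p300-deleted arrays, and 7.46, 7.41 and 7.34 on the control arrays. The CBP-deleted arrays were the 3 lowest of all 9, the control group was narrow, and p300-deleted replicate 1 again lay inside the control range. The difference was -0.70 (SE 0.15, 95% interval -1.03 to -0.37, limma adjusted p = 0.0254), or 1.62-fold lower, with group means of 6.71 ± 0.16 in CBP-deleted and 7.41 ± 0.06 in control cells (SD, n = 3 each). It kept its call in 15 of 20 alternatives, and lost it without any 1 CBP-deleted array, without control replicate 1, and with the 18S ribosomal RNA control level as a covariate, at limma adjusted p-values of 0.0547 to 0.116. In p300-deleted cells the mean was 7.08 ± 0.32 and the difference from control -0.33 (SE 0.15, limma adjusted p = 0.273). CBP-deleted minus p300-deleted was -0.37 (95% interval -0.70 to -0.04, limma adjusted p = 0.208).

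Il12rb2 encodes the signalling chain of the interleukin-12 receptor, which is known as induced in Th1 cells. It gave 3.42, 4.15 and 3.91 in CBP-deleted cells, 4.50, 4.12 and 3.79 in p300-deleted cells and 4.42, 4.02 and 4.09 in control cells. These values lie within the range of the foreign-tissue probe sets, so the arrays did not resolve its level. Its difference from control was -0.35 in CBP-deleted cells (95% interval -0.81 to 0.11, limma adjusted p = 0.391) and -0.04 in p300-deleted cells (limma adjusted p = 0.948).

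Stat4, the transducer of the interleukin-12 receptor, was bright and nearly level. It gave 8.73, 8.73 and 8.63 in CBP-deleted cells, 8.94, 8.85 and 8.78 in p300-deleted cells and 8.84, 8.63 and 8.58 in control cells. CBP-deleted minus control was 0.01, with a 95% interval of -0.19 to 0.21 (limma adjusted p = 0.965). In p300-deleted cells the difference from control was 0.17 (95% interval -0.03 to 0.37, limma adjusted p = 0.370), and every p300-deleted array lay above every CBP-deleted array.

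Il18r1 encodes the binding chain of the interleukin-18 receptor, which acts with interleukin-12 on Ifng. Its values were 9.32, 9.30 and 9.31 in CBP-deleted cells, 9.21, 8.95 and 9.27 in p300-deleted cells and 9.25, 9.11 and 9.23 in control cells. The CBP-deleted arrays were the 3 highest of all 9, but by little: the difference from control was 0.11 (95% interval -0.10 to 0.32, limma adjusted p = 0.555). The difference of p300-deleted cells from control was -0.06 (limma adjusted p = 0.823).

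Ifng, the cytokine gene of the program, varied most between arrays of a group in p300-deleted cells. It gave 7.87, 7.43 and 7.55 on the CBP-deleted arrays, 8.55, 8.03 and 7.23 on the p300-deleted arrays and 8.40, 8.29 and 7.73 on the control arrays. The p300-deleted arrays held both the highest and the lowest value of all 9, and the groups overlapped in every comparison. Means were 7.62 ± 0.23 in CBP-deleted, 7.93 ± 0.67 in p300-deleted and 8.14 ± 0.36 in control cells (SD, n = 3 each). The difference from control was -0.53 in CBP-deleted cells (95% interval -1.13 to 0.08, limma adjusted p = 0.315) and -0.21 in p300-deleted cells (95% interval -0.82 to 0.40, limma adjusted p = 0.758).

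Ifngr1 encodes the binding chain of the interferon-gamma receptor and lies at chr10:19591949-19610229 of GRCm38.p6. It was highest in CBP-deleted cells, with 9.76, 9.83 and 9.74, against 9.09, 9.17 and 9.27 in p300-deleted cells and 9.56, 9.41 and 9.03 in control cells. No p300-deleted or control array reached the lowest CBP-deleted array. CBP-deleted minus p300-deleted was 0.59 (SE 0.12, 95% interval 0.33 to 0.86, limma adjusted p = 0.0141), or 1.51-fold higher in CBP-deleted cells, at means of 9.77 ± 0.05 and 9.18 ± 0.09 (SD, n = 3 each). That call was kept in 17 of 20 alternatives and lost without CBP-deleted replicate 2 or p300-deleted replicate 1 or 2, at limma adjusted p-values of 0.0598 to 0.0751. CBP-deleted minus control was 0.44 (SE 0.12, 95% interval 0.18 to 0.70) and narrowly missed the threshold, with a limma adjusted p of 0.0578 and passes in 4 of 20 alternatives. In p300-deleted cells the difference from control was -0.15 (95% interval -0.41 to 0.11, limma adjusted p = 0.558).

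The promoters of the cytokine gene and its receptor gene are shown together because Ifng and Ifngr1 lay in opposite directions from control in CBP-deleted cells, though neither passed that test. The Ifng window is chr10:118440796-118441095 and the Ifngr1 window chr10:19591699-19591998, both on the plus strand of GRCm38.p6 and from RefSeq. Capitals mark TTCAGAGAA, a STAT match that begins at -249 from the start, and CGTCA, which is TGACG on the other strand, at -197, both in Ifng. Ifngr1 held none of the letters searched.
Ifng: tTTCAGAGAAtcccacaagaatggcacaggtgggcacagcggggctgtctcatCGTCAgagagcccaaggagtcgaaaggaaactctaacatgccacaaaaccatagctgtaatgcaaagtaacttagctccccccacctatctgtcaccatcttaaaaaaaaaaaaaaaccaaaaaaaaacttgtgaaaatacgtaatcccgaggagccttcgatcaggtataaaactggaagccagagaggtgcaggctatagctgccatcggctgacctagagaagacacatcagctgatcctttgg
Ifngr1: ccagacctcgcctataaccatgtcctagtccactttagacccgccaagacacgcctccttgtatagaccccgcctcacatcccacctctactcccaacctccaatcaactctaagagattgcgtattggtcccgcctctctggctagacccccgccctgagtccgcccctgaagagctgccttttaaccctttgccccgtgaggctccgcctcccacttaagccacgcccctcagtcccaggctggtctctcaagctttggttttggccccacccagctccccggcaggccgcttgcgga

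Cxcr3 encodes the chemokine receptor that guides Th1 cells and T-bet-expressing Treg cells to inflamed tissue. It gave 10.21, 10.28 and 10.27 in CBP-deleted cells, 10.65, 10.31 and 10.08 in p300-deleted cells and 10.55, 10.78 and 10.09 in control cells. The CBP-deleted arrays were close together, while replicate 3 was the lowest of both other groups. The difference from control was -0.22 in CBP-deleted cells (95% interval -0.58 to 0.14, limma adjusted p = 0.494) and -0.13 in p300-deleted cells (95% interval -0.49 to 0.23, limma adjusted p = 0.748).

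Across the 10 genes the group means followed few patterns. Tbx21, Il12rb1, Il12rb2, Ifng and Cxcr3 had the order CBP-deleted, p300-deleted, control from low to high, which is 5 of 10, beside 22.8% of all genes, although the order of Il12rb2, whose level was not resolved, carries no weight. Il18r1, Eomes and Ifngr1 had the order p300-deleted, control, CBP-deleted, which is 3 of 10, beside 15.5% of all genes. For most of these genes neighbours in the order did not differ beyond the spread, as the intervals above show. The CBP-deleted group had the smallest SD of the 3 groups for 8 of the 10 genes, beside 44.2% of all genes. The median SD of the 10 genes was 0.069 in CBP-deleted, 0.230 in p300-deleted and 0.239 in control arrays, against 0.102, 0.113 and 0.159 over all genes.

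The spread within the p300-deleted and control groups ran along the same arrays for several genes. In the p300-deleted group replicate 1 was the highest of the 3 for 6 of the 10 genes (Tbx21, Il12rb1, Il12rb2, Stat4, Ifng and Cxcr3), beside 33.0% of all genes, and replicate 3 was the lowest for 5, beside 31.2%. Control replicate 1 was the highest of its group for 8 of 10, beside 29.4% of all genes, and control replicate 3 the lowest for 7, beside 41.6%. Replicate 1 of the p300-deleted group was not high throughout: it was the lowest of its group for Runx3, Eomes and Ifngr1.

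NK cells and CD8 T cells express much of the Th1 program, so their markers are given beside these values. Of 8 NK cell markers 7 were measured. In CBP-deleted cells 0 of the 7 rose or fell against control, with 2 of 7 at an unadjusted limma p under 0.05, beside 20.4% of all genes. In p300-deleted cells 1 of the 7 rose, beside 2.02% of all genes. At an unadjusted limma p under 0.05, in either direction, 4 of 7 passed there, beside 18.6% of all genes. The 1 called higher was the receptor gene Ncr1, which gave 7.56, 7.21 and 5.83 on the p300-deleted arrays against 5.34, 5.30 and 5.67 on the control arrays. The difference was 1.43 (limma adjusted p = 0.0425), called in 7 of 20 alternatives. Its control values lay inside the foreign-tissue range, in the part above 5.19 that Prm1 alone reached. Ncr1 gave 5.36, 5.96 and 5.73 on the CBP-deleted arrays. The high p300-deleted arrays for Ncr1 were thus replicates 1 and 2, while for Tbx21 and Il12rb1 replicate 1 alone was high. Ifng, at 8.55, 8.03 and 7.23, ran down from replicate 1 to replicate 3 as Ncr1 did. So did Tbx21, Il12rb2, Stat4 and Cxcr3, while Runx3, Eomes and Ifngr1 ran up from replicate 1 to replicate 3. The lectin-like receptor genes Klrd1 and Klrk1, singled out after their values were seen, were also highest on p300-deleted replicates 1 and 2. Klrd1 gave 8.93, 8.59 and 7.86 on the p300-deleted arrays, against 8.42, 7.97 and 7.92 on the control arrays. Klrk1 gave 8.43, 8.30 and 7.03 on the p300-deleted arrays, against 7.08, 6.29 and 6.87 on the control arrays. On the CBP-deleted arrays Klrk1 gave 7.44, 7.35 and 7.40, above every control array, and Klrd1 gave 7.44, 7.86 and 8.11, overlapping the control arrays. The NK markers Gzma, Gzmb, Prf1 and Itga2 did not share this pattern. Gzma was highest on p300-deleted replicates 2 and 3, and Gzmb, Prf1 and Itga2 were each highest on a control array. Of the 7 differences between p300-deleted and control cells 4 were positive and 3 negative, the lowest at -1.09. The summed level of the 7 NK markers, on the log2 scale, was 10.01 to 10.67 in CBP-deleted, 10.54 to 10.99 in p300-deleted and 10.17 to 10.79 in control arrays, and of the 7 Itga2 alone was at background throughout, at 2.59 to 3.20. Of the 2 CD8 markers Cd8b1 rose in CBP-deleted cells by 0.74 (limma adjusted p = 0.00847), while Cd8a differed by 0.03 and lay within the foreign-tissue range on every array, at 4.02 to 4.49. The 2 summed to 7.39 to 7.63 in CBP-deleted, 6.97 to 7.26 in p300-deleted and 6.79 to 6.90 in control arrays. The part of these markers in the differences of the Th1 genes was not tested.

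**Figure D3:**
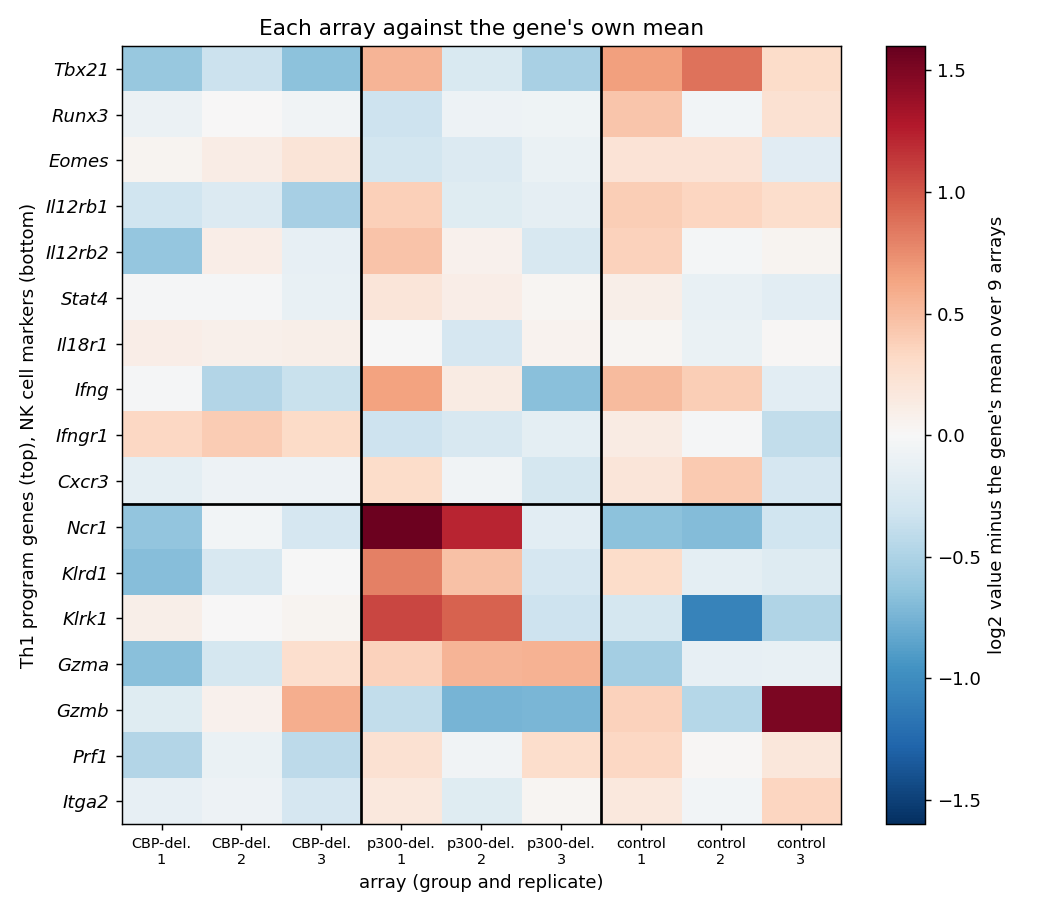
Heat map of each array's log2 value minus the gene's mean over the 9 arrays (colour), for the 10 Th1 genes above the line and the 7 measured NK cell markers under it, with arrays in columns. In p300-deleted replicate 1 Tbx21, Il12rb1, Ifng, Cxcr3 and the NK receptor gene Ncr1 are high, and in CBP-deleted arrays Tbx21 and Il12rb1 are low and Ifngr1 is high.

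Markers of other cell types also moved between the groups. B cell markers fell in CBP-deleted cells for 3 of 5 measured, beside 2.79% of all genes. The falls were 1.03 for Cd79a, 0.84 for Cd79b and 0.62 for Cd22, which were called in 15, 16 and 12 of 20 alternatives. The summed level of the B cell markers was 8.37 to 8.97 in CBP-deleted, 9.06 to 9.52 in p300-deleted and 9.39 to 9.71 in control arrays. In p300-deleted cells 4 of 4 plasma cell markers rose (summed 13.22 to 13.47 in p300-deleted, 12.16 to 12.53 in control arrays), as did 4 of 5 mast cell and basophil markers (8.53 to 9.43 in p300-deleted, 7.21 to 7.48 in control arrays), beside 2.02% of all genes. Of these, Sdc1 was called in 6 of 20, Cpa3 in 11 of 20 and Fcer1a in 8 of 19 alternatives. On the control arrays Tnfrsf17, Mcpt8, Fcer1a and Cma1 lay inside the foreign-tissue range, at 3.87 to 5.25. Fcer1a was also there on p300-deleted replicates 2 and 3, at 5.59 and 5.69, in the part that Prm1 alone reached. The sizes of these differences are thus not well resolved. Myeloid markers passed the test in neither comparison with control (0 of 7), with 3 of 7 in CBP-deleted and 4 of 7 in p300-deleted cells at an unadjusted limma p under 0.05 (20.4% and 18.6% of all genes), and summed to 9.06 to 12.06 in CBP-deleted, 9.40 to 11.48 in p300-deleted and 7.60 to 9.12 in control arrays. Their largest differences from control were those of the neutrophil genes S100a8, at 2.47 for CBP deletion and 2.55 for p300 deletion, and S100a9, at 2.48 and 2.42, with limma adjusted p-values of 0.129 to 0.159. Single arrays carried much of this: without CBP-deleted replicate 3, which gave 11.01 beside 7.64 and 7.64 for S100a8, the CBP-deleted differences were 1.34 for S100a8 and 1.32 for S100a9, and without control replicate 2 they were 1.78 and 1.82. Without p300-deleted replicate 1 the p300-deleted differences were 1.93 and 1.80, and without control replicate 2 they were 1.86 and 1.77. Dendritic cell markers also gave 0 of 3, with summed levels of 7.10 to 7.55 in CBP-deleted, 7.37 to 7.70 in p300-deleted and 7.23 to 7.89 in control arrays and differences of -0.24 and 0.43 for Itgax and -0.09 and -0.26 for Flt3 in CBP-deleted and p300-deleted cells. The 18S control level, in replicate order, was 7.39, 8.0 and 7.85 in CBP-deleted, 7.88, 9.62 and 8.07 in p300-deleted and 5.82, 6.20 and 8.88 in control arrays. With the 18S level as a covariate, Il12rb1 lost its call and Ifngr1 gained one in CBP-deleted against control. In p300-deleted against control the differences of Cxcr3, Ifng and Ifngr1, none of them called, then turned positive. How far the marker differences enter the Th1 values was not tested. Summed in the same way, the 10 Th1 genes gave 11.91 to 11.95 on the CBP-deleted arrays, 11.75 to 12.09 on the p300-deleted arrays and 11.78 to 12.16 on the control arrays.

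For the called genes Tbx21 and Il12rb1, the genes with the most similar profile over the 9 arrays were taken by the smallest root mean square difference between mean-centred log2 values. The same arrays served for this choice, so low values of these genes in CBP-deleted cells follow from it and add no support to the calls. For Tbx21 these were Atp8a2 (0.161), Cxcr6 (0.180) and Ckb (0.194), beside an SD of 0.592 for Tbx21 itself over the arrays. Cxcr6, a chemokine receptor of effector T cells, gave 9.31, 9.34 and 9.46 on the CBP-deleted arrays, 10.41, 9.22 and 9.25 on the p300-deleted arrays and 10.33, 10.45 and 10.07 on the control arrays. It too had p300-deleted replicate 1 inside the control range and replicates 2 and 3 in or near the CBP-deleted range. Its difference from control was -0.91 in CBP-deleted cells (limma adjusted p = 0.0578) and -0.66 in p300-deleted cells (limma adjusted p = 0.172). Ckb, a creatine kinase gene, fell by 1.38 in CBP-deleted cells (limma adjusted p = 0.0101). For Il12rb1 the nearest were Tnfrsf1a (0.119), St3gal6 (0.134) and Thy1 (0.134), beside an SD of 0.354 for Il12rb1. In CBP-deleted cells Tnfrsf1a, a receptor of TNF, had a difference of -0.61 (limma adjusted p = 0.0136), and Thy1, a surface marker of T cells, -0.58 (limma adjusted p = 0.00831). St3gal6, at -0.55, was not called (limma adjusted p = 0.113).

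Other genes of the Th1 pathway were taken from lists of its ligands, signalling, targets and effectors. Of 16 listed effector genes and partners of T-bet 15 were measured, and in CBP-deleted cells 2 fell and 0 rose, beside 2.79% and 2.14% of all genes. This count was 0 to 6 when 1 array was left out, with 0 without CBP-deleted replicate 2 or 3, 1 without CBP-deleted replicate 1, p300-deleted replicate 2 or 3 or control replicate 1, 4 without p300-deleted replicate 1 and 6 without control replicate 3. Tnf, the gene of tumour necrosis factor, gave 7.43, 7.14 and 7.07 in CBP-deleted cells, 7.84, 8.11 and 7.78 in p300-deleted cells and 8.03, 7.93 and 7.90 in control cells. Its CBP-deleted minus control difference was -0.74 (SE 0.12, limma adjusted p = 0.00898), and CBP-deleted minus p300-deleted -0.70 (limma adjusted p = 0.00706). The chemokine gene Ccl5 fell by 0.58 in CBP-deleted cells (limma adjusted p = 0.0416) and by 0.57 in p300-deleted cells (limma adjusted p = 0.0496), though these calls held in only 8 and 4 of 20 alternatives. All 15 differences from control were negative in CBP-deleted cells, also after centring on array medians or quantile normalization, and leaving out 1 array left 13 to 15 negative. Among all genes 56.6% of differences were negative. The median of the 15 was -0.49, beside -0.03 over all genes.

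In p300-deleted cells 1 effector gene rose and 1 fell, beside 2.02% and 2.04% of all genes. Of the 15 differences 11 were negative, beside 55.1% of all genes, and their median was -0.28, beside -0.02 over all genes. Without p300-deleted replicate 3 the median was -0.05 with 9 of 15 negative, and without control replicate 1, 2 or 3 it was -0.16, -0.16 and -0.12. The gene that rose was Lta, which encodes lymphotoxin alpha. It gave 8.79, 9.12 and 8.93 on the p300-deleted arrays against 8.33, 8.40 and 8.31 on the control arrays, a difference of 0.60 (SE 0.11, limma adjusted p = 0.0148). On the CBP-deleted arrays it gave 8.13, 8.16 and 7.86, below every control array, and CBP-deleted minus p300-deleted was -0.90 (limma adjusted p = 0.00169). The neighbouring cytokine genes Tnf and Lta thus differed between CBP-deleted and p300-deleted cells, both lower in CBP-deleted cells.

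**Figure D4:**
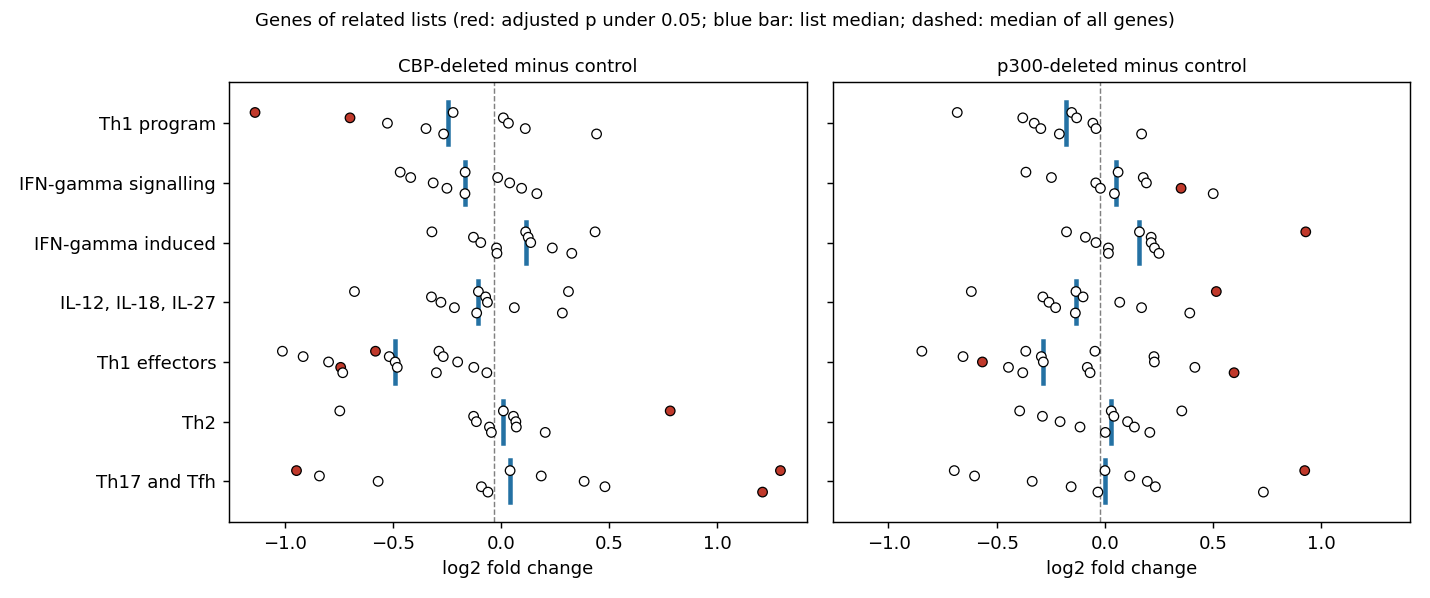
Log2 fold change of each measured gene (points; filled where the limma adjusted p is under 0.05) of the Th1 genes and 6 related lists, with each list's median as a bar and the median of all genes as a dashed line. In CBP-deleted minus control the Th1 effector points all lie under 0, with a list median of -0.49. In p300-deleted minus control Iigp1 (0.93), Il21 (0.92, of the Th17 and Tfh list) and Lta (0.60) stand out above their lists.

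Downstream of the interferon-gamma receptor, 10 of 11 signalling genes were measured. In CBP-deleted cells 0 passed, with 3 of 10 at an unadjusted limma p under 0.05 (20.4% of all genes) and a median of -0.17. In p300-deleted cells 1 rose, beside 2.02% of all genes, and the list median was 0.05. It was Ptpn11, the gene of the phosphatase SHP2, at 0.35 (limma adjusted p = 0.0481). Ptpn11 was called in only 4 of 20 alternatives and was -0.03 as the mean of its probe sets. Of 12 interferon-gamma induced genes 11 were measured. In CBP-deleted cells 0 passed, with 3 of 11 at an unadjusted limma p under 0.05 (20.4% of all genes) and a median of 0.11. In p300-deleted cells 1 rose, beside 2.02% of all genes, with a median of 0.16. That gene was Iigp1, an interferon-inducible GTPase, which gave 9.30, 9.42 and 9.63 on the p300-deleted arrays against 8.67, 8.48 and 8.41 on the control arrays, with no overlap and a difference of 0.93 (SE 0.14, limma adjusted p = 0.00819), called in 20 of 20 alternatives. The CBP-deleted arrays gave 9.17, 9.09 and 8.61 for Iigp1.

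Of 12 ligand, receptor and adaptor genes of interleukin-12, interleukin-18 and interleukin-27, 11 were measured. In CBP-deleted cells 0 passed, with 5 of 11 at an unadjusted limma p under 0.05 (20.4% of all genes) and a median of -0.10. In p300-deleted cells 1 rose, beside 2.02% of all genes, with a list median of -0.13. It was Ebi3, the beta chain of interleukin-27 and interleukin-35, with 8.49, 8.42 and 8.16 on the p300-deleted arrays, against 7.67, 7.88 and 7.98 on the control arrays. The difference was 0.52 (limma adjusted p = 0.0396), called in 9 of 20 alternatives.

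Genes of the other helper lineages were set beside the Th1 genes. Of 12 Th2 genes 11 were measured. Ccr8, a chemokine receptor of Th2 and Treg cells, was the 1 that rose in CBP-deleted cells, beside 2.14% of all genes, and 0 fell. It was higher by 0.78 (limma adjusted p = 0.0478, called in 6 of 20 alternatives). In p300-deleted cells 0 Th2 genes passed, with 3 of 11 at an unadjusted limma p under 0.05 (18.6% of all genes). Of 14 Th17 and Tfh genes 11 were measured. Of these, 2 rose and 1 fell in CBP-deleted cells, beside 2.14% and 2.79% of all genes. In CBP-deleted cells Il21, a cytokine gene of follicular helper and Th17 cells, rose by 1.29 (limma adjusted p = 0.00286) and Ahr, a ligand-activated factor of Th17 cells, by 1.21 (limma adjusted p = 0.00532), while Cxcr5, the follicle-homing receptor, which B cells also express, fell by 0.95 (limma adjusted p = 0.0139). In p300-deleted cells 1 of the 11, Il21, rose, by 0.92 (limma adjusted p = 0.0146), beside 2.02% of all genes. The control arrays gave 4.71, 5.30 and 4.72 for Il21, inside the foreign-tissue range, and Ccr8 had 2 of its 3 control arrays there (5.54 and 5.04, beside 5.97), so the sizes of these differences are not well resolved. List medians were 0.01 for Th2 and 0.04 for Th17 and Tfh genes in CBP-deleted cells, and 0.03 and 0.00 in p300-deleted cells.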

How the data were processed

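Transcripts of 9 CD4+CD25+ Treg cell samples were measured on single-channel Affymetrix arrays. The deposited values are 1 log2 value per probe set and array, which the authors summarised with RMA, per the submitters' processing notes; no version, background or annotation settings are given in the sources used here. RMA scales arrays to a shared distribution, so a change in total RNA per cell is not visible. Of 22690 probe sets 64 controls were set aside; of the other 22626, 20380 carried 1 gene symbol, 691 several and 1555 are unnamed here (GEO's platform annotation, with 29 gene identifiers without a match in RefSeq GRCm38.p6). The probe set with the highest mean over the 9 arrays stood for its gene, which gave 12393 genes.

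From these values, lmFit and eBayes with a trend were run in limma 3.58.1 (R 4.3.3). Each group had its own mean in a joint fit of the 9 arrays, which leaves 6 residual degrees of freedom. Tests were two-sided, with Benjamini-Hochberg adjustment over all genes at 0.05. Groups came from the labels. An exact permutation test of 3 against 3 arrays cannot go below 0.1 and was not used. For arrays no depth exists, and their number limits the precision. On simulated data over 12393 genes the CBP-deleted against control fit recovered 53.3% of changes of 0.5 and 97.9% of changes of 1 on the log2 scale, with 5.32% false calls. Each result was recomputed under 20 alternatives.

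The 10 genes, the lists and the markers were chosen with earlier results of these data known, so no list was tested as a set. Named genes are the 10, of each other list up to 4 past the threshold against control by size, and the 3 genes most alike in profile to each called one. The promoters were read from RefSeq's GRCm38.p6 table.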

Additional observations from a re-analysis of the deposited data

How the results depend on the processing

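Tbx21 and Il12rb1 stayed negative in CBP-deleted against control under all 20 alternatives, at -1.30 for Tbx21 at the lowest and -0.77 to -0.61 for Il12rb1, with limma adjusted p-values of 0.00439 to 0.0853 and 0.00762 to 0.116. Ifngr1 stayed positive in CBP-deleted against p300-deleted, at 0.51 to 0.64 (0.000697 to 0.0751). Of the 10 genes called, the 2 of CBP-deleted against control became 0 to 3 when 1 array was left out. They became 3, with Ifngr1 added, with array weights and with dim probe sets left out. With the 18S covariate the 2 were Tbx21 and Ifngr1. The 0 of p300-deleted against control became 0 to 1 when 1 array was left out and 2 with array weights (Eomes at -0.37 and Runx3 at -0.49). The 1 of CBP-deleted against p300-deleted became 0 to 2 when 1 array was left out, 2 with array weights and 2 with only the groups compared. The filter on dim probe sets dropped Il12rb2 and Runx3, which have 19 alternatives. The 611 genes changed in CBP-deleted against control became 366 with every probe set on its own, 1755 with array weights, 261 with only the groups compared, 364 with the 18S covariate, and 85 to 1131 when 1 array was left out. The 503 of p300-deleted against control became 1028 with array weights, 165 with only the groups compared, 244 with the 18S covariate and 65 to 854 when 1 array was left out. The 645 of CBP-deleted against p300-deleted became 1467, 1386 and 212 to 1041 with array weights, with only the groups compared and when 1 array was left out. With the replicate number as a block these counts were 364, 326 and 524, and those of the 10 genes stayed 2, 0 and 1. Same-numbered arrays had deviations that correlated between -0.23 and 0.27 over genes, so the numbers were not taken to pair the samples. Differences that turned sign were uncalled, except Ptpn11 in p300-deleted cells (-0.033 as the mean of its probe sets). In CBP-deleted against control, Eomes was -0.044 with array weights and -0.10 to 0.10 when 1 array was left out, Stat4 -0.0075 after median centring, -0.068 with array weights and -0.041 to 0.090 when 1 array was left out, and Flt3 0.11 with array weights and -0.29 to 0.31 when 1 array was left out. In p300-deleted against control the 18S covariate gave 0.10 for Cxcr3, 0.059 for Ifng and 0.027 for Ifngr1. There, leaving out 1 array gave -0.32 to 0.022 for Cxcr3, -0.52 to 0.14 for Ifng, -0.22 to 0.13 for Il12rb2, -0.12 to 0.043 for Il18r1 and -0.46 to 0.14 for Flt3, and in CBP-deleted against p300-deleted -0.22 to 0.061 for Cxcr3. Where 1 array was left out the test had fewer samples; for the other changes the cause was not tested.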
